A study of Homo sapiens with 58 samples.

Results

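The endoplasmic reticulum (ER) folds secreted and membrane proteins, and 34 genes of its folding machinery, stress sensors and degradation machinery were followed here through 58 libraries of HepG2 cells. The 34 genes were a chosen list, of 60675 genes in the deposited table. All 34 passed the expression filter, in which a gene needed at least 1 CPM (reads scaled to a common library total) in 3 or more libraries and which 13945 genes passed. HepG2 is a human hepatocellular carcinoma line that still makes and secretes many plasma proteins of the hepatocyte, so its ER carries a steady load of new protein. The cells were given plant extracts for 24 h before RNA sequencing. Extracts of the formulas Sayeok-tang and Bojungikgi-tang were made with hot water. Extracts of Scutellariae Radix, Pinelliae Tuber, Zizyphi Fructus, dried ginger (Zingiberis Rhizoma) and fresh ginger (Zingiberis Rhizoma Recens) were made with 70% ethanol. These 7 extracts were each given at 20, 100 and 500 µg/mL, called the low, medium and high dose below. A Coptidis Rhizoma extract, also made with ethanol, was present at 11.2 µg/mL (low) and 56 µg/mL (medium). The comparison cells had the vehicle, dimethyl sulfoxide, at 0.1% by the sample labels, while the series text gives 2%. No dimethyl sulfoxide share is recorded in the labels of the extract libraries.

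Each extract and dose had 3 libraries, apart from Bojungikgi-tang at every dose and dried ginger at the high dose, which had 2. Coptidis Rhizoma and Zizyphi Fructus had 1 library per dose, so their values have no replicate check and no test. The vehicle had 3 libraries. The labels do not say whether replicate libraries came from separate cultures, so the p-values measure the spread between these libraries, which may be technical. The vehicle libraries carry a label prefix of their own. Wherever an extract is set against the vehicle, treatment, prefix and any difference in solvent therefore cannot be told apart. The high and low doses of an extract share a prefix, as do the 2 formulas, the 2 gingers, and Pinelliae Tuber with Scutellariae Radix. In bulk libraries such as these, fewer cells of a kind and less RNA per cell cannot be told apart.

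Cells adjust the capacity of the ER through the unfolded protein response, which starts from 3 sensors in its membrane. ERN1 (IRE1) cuts XBP1 mRNA so that an active transcription factor is made from it. ATF6 is cut in the Golgi and releases a factor that raises chaperone genes, and EIF2AK3 (PERK) slows translation while favouring ATF4 and, downstream, the pro-apoptotic factor DDIT3 (CHOP). HSPA5 (BiP), an Hsp70 of the ER lumen, holds the sensors inactive while it has few unfolded clients. Gene totals such as these do not separate spliced from unspliced XBP1 mRNA.

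Many chaperone genes carry the ER stress response element (ERSE) in their promoters, where NF-Y binds the CCAAT box and cut ATF6 the CCACG box. Exact matches to this element (CCAAT, 9 bases of any kind, CCACG), to the related ERSE-II (ATTGG, 1 base of any kind, CCACG), to the unfolded protein response element TGACGTGG and to the ATF4 site TGATGNAAT were searched on both strands of 300-base promoters from RefSeq (GRCh38.p14), which run from 250 bases before to 50 bases after the gene start. Promoters were found for 32 of the 34 genes and for 15843 protein-coding genes in all. The ERSE was in 6 of the 32 (18.8%), against 19 of all 15843 (0.12%). ERSE-II was in 3 of the 32 (9.38%), against 12 of all promoters (0.0757%). The TGACGTGG element was in 1 of the 32, HYOU1, and in 0.833% of all promoters, and the ATF4 site was in none of the 32 and in 0.625% of all. The ERSE was searched because chaperone genes are known to carry it, so its higher share in the 32 is no test. A match is a description of the letters, and the absence of a match says only that these letters are not in the window. The 250 bases before the start of HSPA5 are shown because this gene is the reference chaperone of the response (chr9:125241344-125241593, minus strand, the 2 fixed boxes of the ERSE in capitals).
HSPA5: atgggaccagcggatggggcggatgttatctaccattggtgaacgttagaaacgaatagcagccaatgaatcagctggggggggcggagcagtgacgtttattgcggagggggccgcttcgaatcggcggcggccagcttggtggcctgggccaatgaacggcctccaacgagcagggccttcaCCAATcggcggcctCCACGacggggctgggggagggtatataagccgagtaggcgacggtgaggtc
The ERSE of HSPA5 ended 48 bases before the start (chr9:125241391-125241409). The matching sites of the other genes are shown to let the spacer between the fixed boxes (capitals) be compared, each read on the strand that carries CCAAT or ATTGG first.
HSP90B1 upstream ERSE: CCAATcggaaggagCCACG
HSP90B1 downstream ERSE: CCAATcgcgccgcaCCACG
CALR ERSE: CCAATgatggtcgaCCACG
CANX ERSE: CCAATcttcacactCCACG
CRELD2 ERSE: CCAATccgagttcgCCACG
XBP1 ERSE: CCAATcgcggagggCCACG
HYOU1 ERSE-II: ATTGGaCCACG
SDF2L1 ERSE-II: ATTGGtCCACG
HERPUD1 ERSE-II: ATTGGgCCACG
These sites lay at chr12:103930216-103930234 and chr12:103930321-103930339 for HSP90B1, chr19:12938384-12938402 for CALR, chr5:179698778-179698796 for CANX, chr22:49918554-49918572 for CRELD2 and chr22:28800603-28800621 for XBP1. The downstream site of HSP90B1 and those of CALR, CRELD2, HYOU1 and SDF2L1 were on the strand opposite to the gene. HYOU1 held ERSE-II at chr11:119057380-119057390 and again at chr11:119057274-119057284, and its TGACGTGG at chr11:119057386-119057393 overlapped the upstream copy. SDF2L1 held its site at chr22:21642114-21642124 and HERPUD1 at chr16:56932025-56932035.

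Library totals ran from 22143845 to 31859981 expected counts, with reads on 21118 to 22865 genes. The 34 genes together held 1.19% to 1.2% of the reads in vehicle libraries. The 2 Coptidis Rhizoma libraries stood apart, with 17.3% of reads on mitochondrial genes at the medium dose and 20.1% at the low dose, against 8.26% to 11.2% in all other libraries. The third replicates of the low doses of Scutellariae Radix and of dried ginger also stood apart from their groups, with SELENOS at 36.8 CPM in that Scutellariae Radix library, against 31.1 and 31.9 CPM in the other low-dose replicates, and PDIA6 at 586 CPM in that dried ginger library, against 682 and 678 CPM. Several counts and leading changes that rest on these 2 low-dose replicates are also given without them. The 2 were singled out after the data were seen. High-dose fresh ginger replicate 1 also differed from its group, with DNAJB9 at 26.9 CPM against 33.3 and 32.6 CPM. It was left out only where each replicate was dropped in turn. The Coptidis Rhizoma values have no other library to set beside them. All 10 hepatocyte markers were tested and summed to between 29620 and 42590 CPM in extract libraries, against 38920 to 40080 CPM in vehicle libraries. Fibroblast markers, 1 of 7 tested and 2 with no reads, summed to between 0.205 and 1.7 CPM in extract libraries, against 0.953 to 1.2 CPM with the vehicle. Endothelial markers, 2 of 6 tested, summed to between 4.11 and 6.41 CPM, against 4.77 to 6.11 CPM with the vehicle. Of 7 leukocyte markers 3 were tested and 1 had no reads, and the sum of 1187 to 2352 CPM in extract libraries, against 1350 to 1420 CPM with the vehicle, was carried by LYZ, which averaged 1514 CPM over all libraries.

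In vehicle cells the levels of the 34 genes, in CPM per kilobase of gene model so that genes can be compared, spanned a wide range. Lumenal chaperones led. The lectin chaperone CALR (calreticulin) stood first at 512 ± 8.61 CPM per kilobase and HSPA5 second at 367 ± 3.28 CPM per kilobase (SD, n = 3 for both). The disulfide isomerase P4HB followed at 280.5 and the ER Hsp90 HSP90B1 at 235 CPM per kilobase. The sensors were at the other end, with EIF2AK3 at 7.62, ATF6 at 5.87 and ERN1 last at 1.32 ± 0.116 CPM per kilobase (SD, n = 3). XBP1, the target of ERN1, stood far above its sensor at 114 CPM per kilobase. Neighbours in this order mostly did not overlap between libraries. The exceptions were CANX with TXNDC5, TXNDC5 with PDIA4, SDF2L1 with UGGT1, PDIA5 with ERP44, ERP44 with SYVN1, DNAJB9 with EDEM1, EDEM1 with DERL1, SELENOS with EIF2AK3, and ATF6 with DERL2. RSEM shares reads among similar genes, pseudogenes and readthrough genes, so the levels of HSPA5 and HSP90B1 depend in part on that allocation.

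Against the vehicle, high doses moved many of the 34 genes, but not as a block. A gene is called here where the adjusted p of edgeR's quasi-likelihood test, by Benjamini-Hochberg over the 13945 genes, was below 0.05. The high dose of Scutellariae Radix raised 6 and lowered 18 of the 34, where 56.7% of all tested genes were called (28.7% higher and 28.1% lower). High-dose dried ginger raised 19 and lowered 4, beside 46.1% of all genes (23.3% higher and 22.8% lower), and high-dose fresh ginger raised 14 and lowered 8, beside 47.9% (24.3% higher and 23.6% lower). High-dose Sayeok-tang raised 17 and lowered 4, beside 40.2% (20.3% higher and 19.9% lower). The shares of the 34 genes called were thus above those of all genes in these 4 comparisons. The list was chosen with earlier results of these data known, and all genes were not matched to it by level. This contrast is therefore a description. High-dose Pinelliae Tuber raised 5 and lowered 1, beside 15.7% of all genes (9.14% higher and 6.57% lower). These comparisons share their vehicle libraries. The median log2 fold change of the 34 genes was -0.12 with high-dose Scutellariae Radix, 0.12 with dried ginger, 0.06 with fresh ginger, 0.09 with Sayeok-tang and 0.04 with Pinelliae Tuber, while that of all genes lay between 0 and 0.01 in each.

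**Figure D1:**
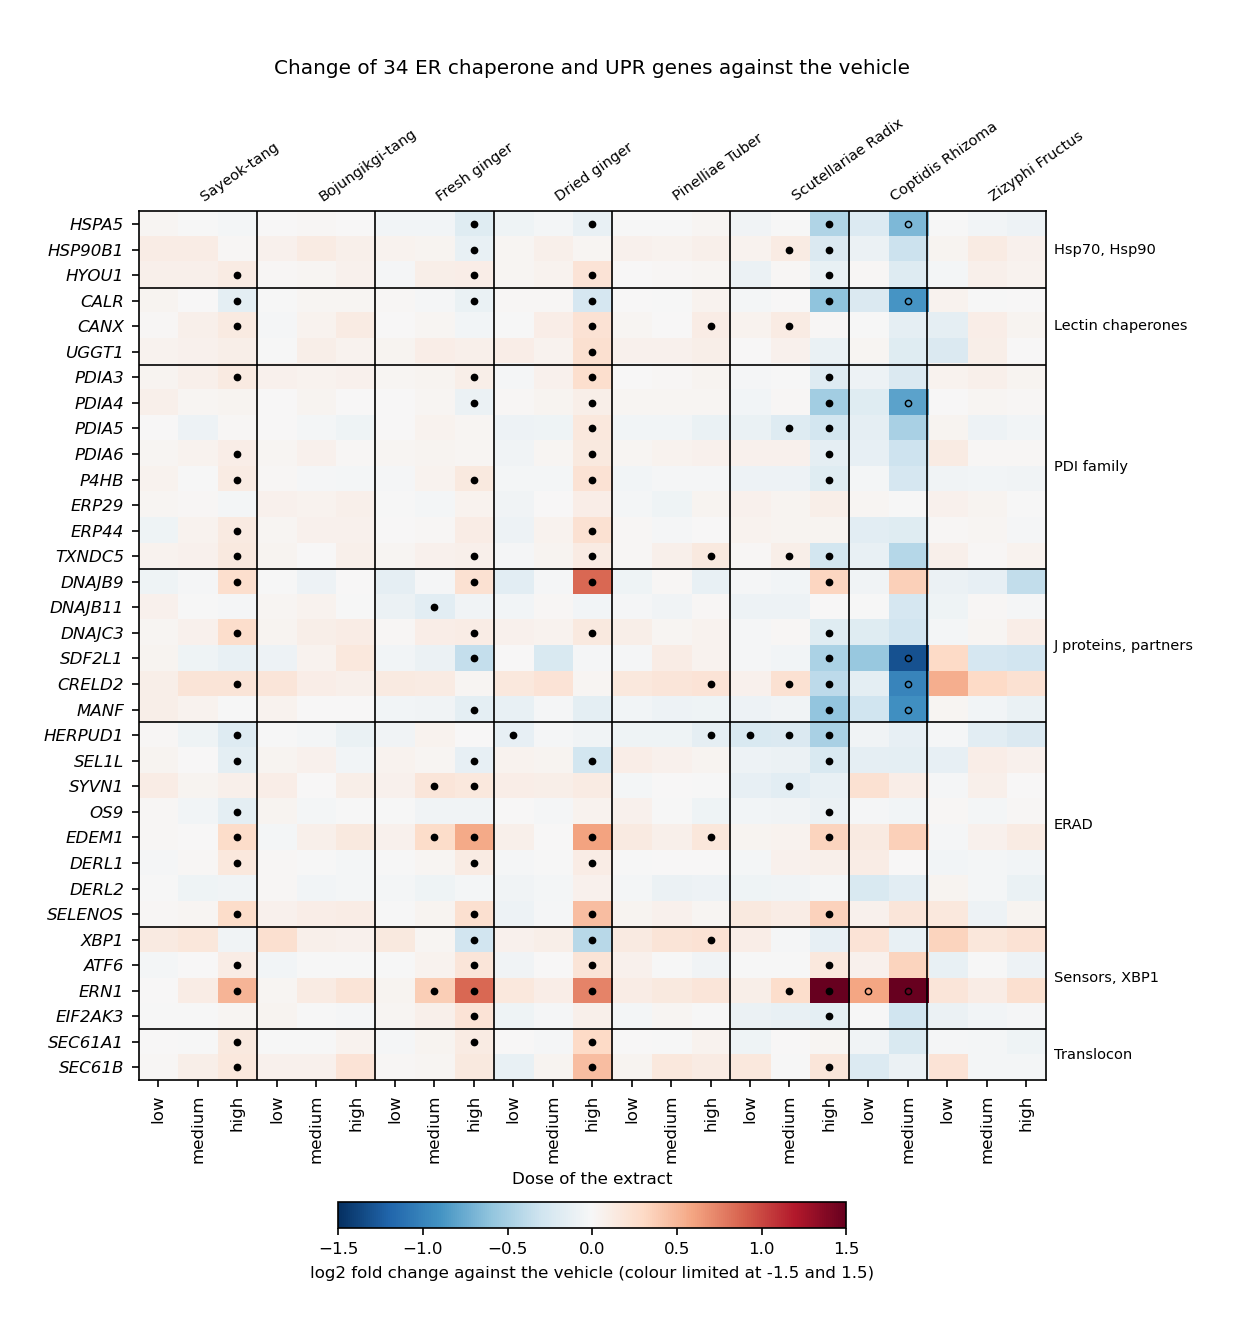
Log2 fold change of each of the 34 genes (rows, grouped by role) against the vehicle in 23 extract and dose groups (columns, low to high dose within an extract). Filled dots mark called changes and open circles changes past 1.5-fold in the groups of 1 library; ERN1 is red in the high-dose columns of several extracts, while HSPA5, CALR, PDIA4, SDF2L1, CRELD2 and MANF are blue for Scutellariae Radix high and Coptidis Rhizoma medium, where DNAJB9 is red, and DNAJB9 and EDEM1 are red for dried ginger high.

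High-dose Scutellariae Radix gave a split picture, with the sensor ERN1 up and most chaperones and isomerases down. All 3 genes of the Hsp70 and Hsp90 group were called lower against the vehicle, and HSPA5 and HSP90B1 also against the low dose. HSPA5 had 1072, 1014 and 1051 CPM with high-dose Scutellariae Radix, against 1430, 1421 and 1446 CPM in vehicle libraries. No extract library came near the vehicle range. The log2 fold change was -0.45 ± 0.032 (SE), with an adjusted p of 1.1e-16 by edgeR. HSP90B1, which folds a narrow set of clients, changed by -0.22 and HYOU1, the nucleotide exchange factor of HSPA5, by -0.12 on the log2 scale. Among the lectin chaperones, which bind sugar-tagged proteins, CALR had 933, 889 and 926 CPM with high-dose Scutellariae Radix, against 1406, 1398 and 1362 CPM in vehicle libraries. This was a log2 change of -0.60 ± 0.032 (SE, adjusted p 4.93e-21 by edgeR), the largest fall among the 34 genes in this comparison. Its membrane-bound partner CANX (calnexin) was not called, at 999, 990.1 and 978 CPM with the extract and 978, 1003 and 958 CPM with the vehicle, ranges that overlap.

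The disulfide isomerases, which form and shuffle disulfide bonds, also fell with high-dose Scutellariae Radix, 6 of 8 in all and none raised. PDIA4 had 343, 333 and 356 CPM with the extract, against 491, 488 and 498 CPM in vehicle libraries, and the groups did not overlap. Its log2 change of -0.52 ± 0.027 (SE) had an adjusted p of 3e-21 by edgeR. TXNDC5 changed by -0.28, PDIA5 by -0.27, PDIA3 by -0.20, P4HB by -0.18 and PDIA6 by -0.14 on the log2 scale, while ERP29 and ERP44 were not called. Of the partners of HSPA5 and other stress-induced lumenal proteins, 4 of 6 fell. MANF, which holds HSPA5 on its clients, had 64.4, 59.5 and 68.2 CPM with high-dose Scutellariae Radix, against 99.9, 91.3 and 97.7 CPM with the vehicle, without overlap. SDF2L1, a partner of the J protein DNAJB11, had 21.9, 19.7 and 25.3 CPM, against 32.1, 29.4 and 31.5 CPM with the vehicle. CRELD2, a stress-induced lumenal protein, changed by -0.39 and the J protein DNAJC3 by -0.18 on the log2 scale. DNAJB9, a J protein that brings HSPA5 to ERN1, went the other way, with 33.3, 33.0 and 33.1 CPM, against 27.0, 26.6 and 25.7 CPM with the vehicle (log2 change 0.33 ± 0.062, adjusted p 1.72e-05 by edgeR).

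Genes of ER-associated degradation, which returns misfolded proteins to the cytosol for destruction, went both ways with high-dose Scutellariae Radix. HERPUD1, a scaffold of the retrotranslocation complex, had 73.8, 76.7 and 74.9 CPM, against 109, 102 and 106 CPM with the vehicle. The log2 change was -0.49 ± 0.034 (SE, adjusted p 1.2e-16 by edgeR). SEL1L, the adaptor of the ubiquitin ligase SYVN1, changed by -0.23 and the lectin OS9 by -0.09. EDEM1, which marks misfolded glycoproteins, had 75.9, 77.2 and 76.0 CPM with the extract, against 62.8, 61.4 and 58 CPM with the vehicle, a log2 change of 0.33 ± 0.047 (SE, adjusted p 7.25e-08 by edgeR). SELENOS, a membrane protein that recruits the VCP ATPase, had 37.8, 37.0 and 39.8 CPM, against 30.9, 30.2 and 28.9 CPM with the vehicle. Neither gene's extract libraries overlapped the vehicle range.

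Among the sensors, ERN1 gave the largest change of all 34 genes in any replicated group. It had 44.9, 43.7 and 42.1 CPM with high-dose Scutellariae Radix, against 12.9, 14.9 and 15.2 CPM with the vehicle. Every extract library was far above every vehicle library, 3.04-fold on average, with a log2 change of 1.60 ± 0.062 (SE, adjusted p 6.42e-26 by edgeR). ATF6 changed by 0.16 and EIF2AK3 by -0.15 on the log2 scale. XBP1, with 303, 326 and 319 CPM against 352, 314 and 366 CPM in vehicle libraries, overlapped the vehicle range and was not called (adjusted p 0.115 by edgeR). Of the translocon, through which new chains enter, SEC61B was called higher by 0.18 on the log2 scale with overlapping groups, and SEC61A1 was not called. At the medium dose of Scutellariae Radix 5 of the 34 genes were called higher and 3 lower, beside 18.3% of all genes (8.99% higher and 9.33% lower), and 4 were called in all without medium-dose replicate 3 or vehicle replicate 3. ERN1 was then at 17.7, 16.5 and 17.4 CPM (log2 change 0.26), and HERPUD1 was lower by 0.22. At the low dose HERPUD1 alone was called, where 10.3% of all genes were (4.87% lower), with 92.1, 90.9 and 87.1 CPM at the low dose, against 109, 102 and 106 CPM with the vehicle. The log2 change of -0.23 ± 0.034 (SE) had an adjusted p of 6.37e-06 by edgeR, and without the third low-dose replicate the count was again 1, while without the first or the second it was 2.

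**Figure D2:**
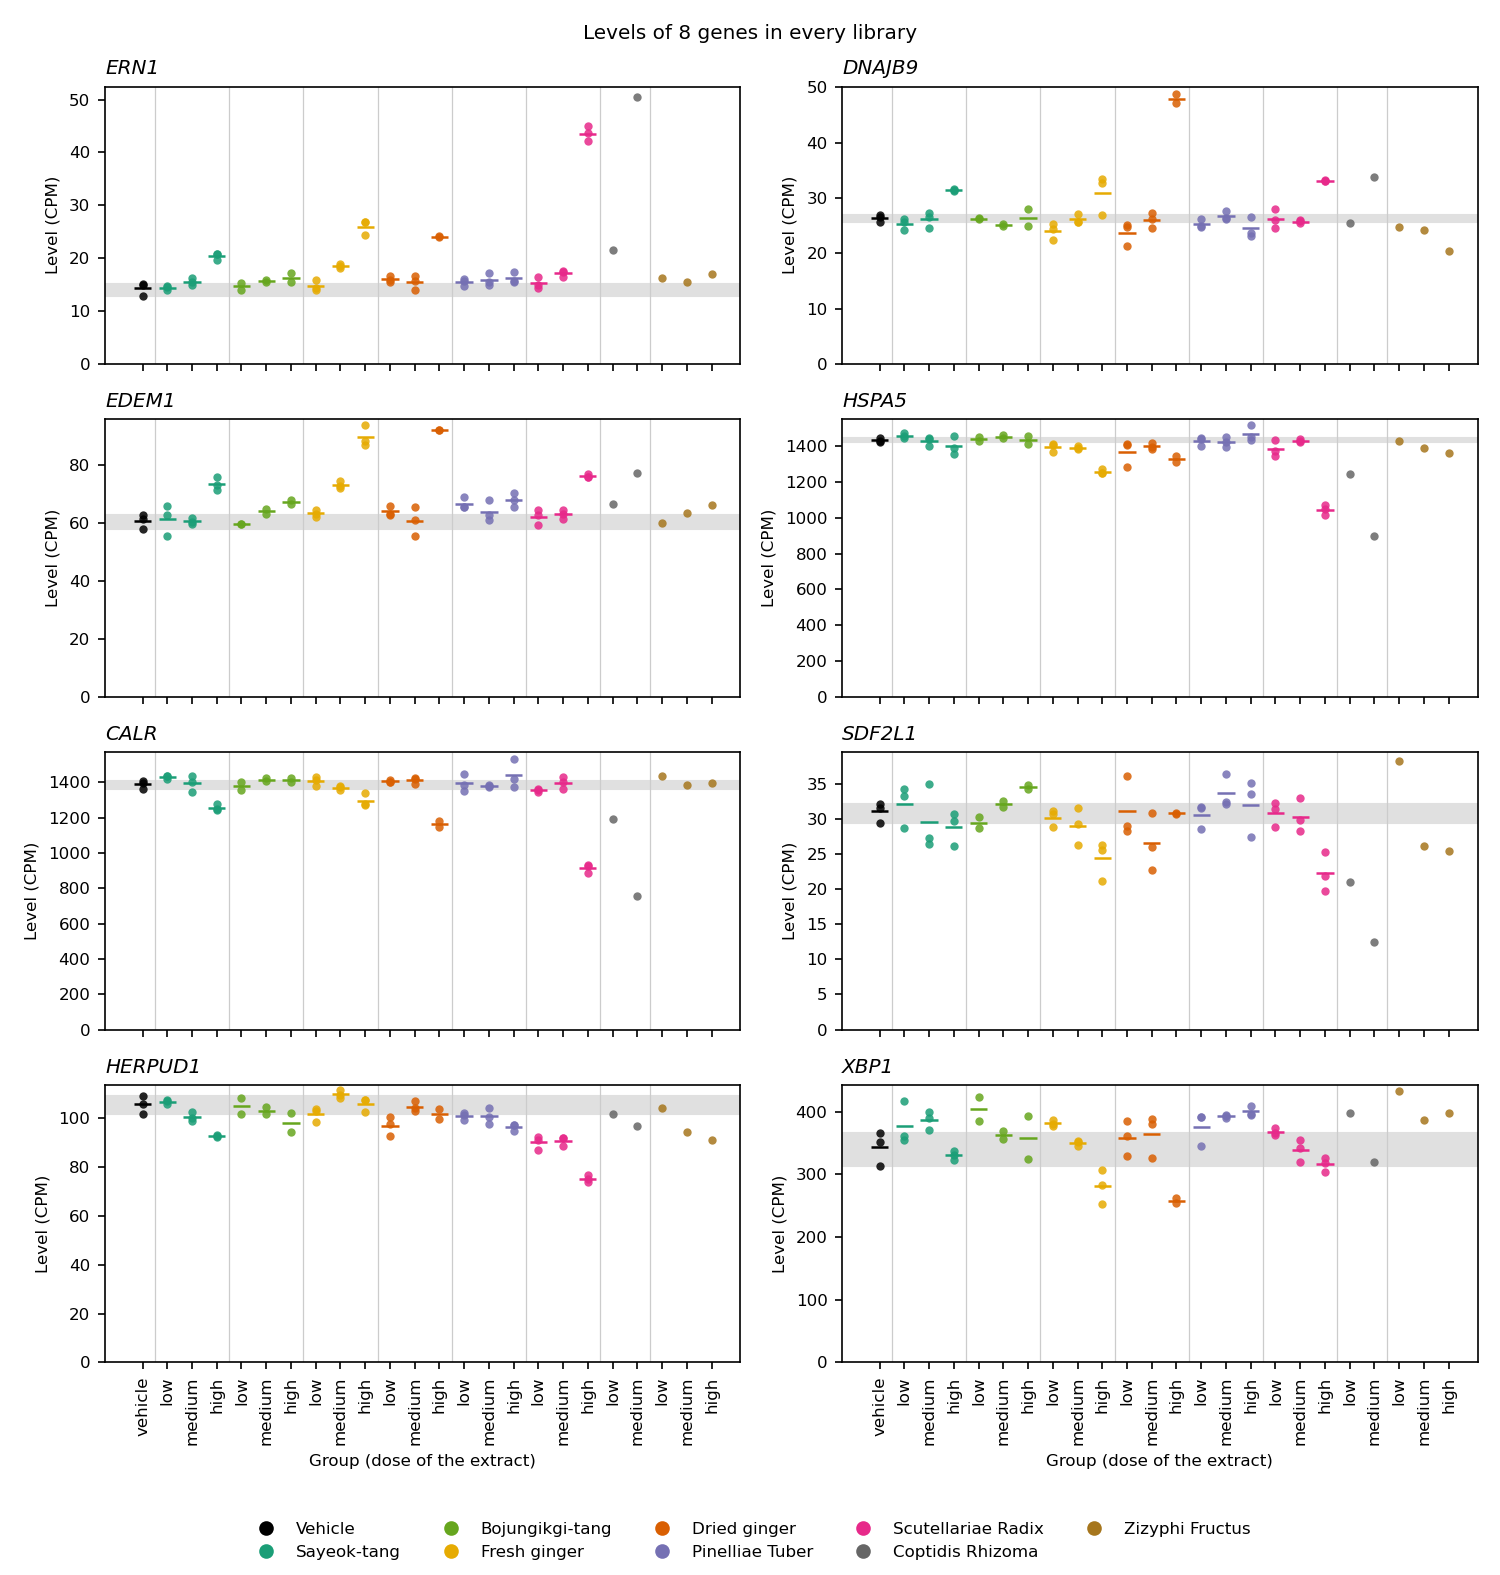
Level in CPM of 8 genes in each library (points), by group from the vehicle through the extracts at rising dose, with group means as bars and the range of the 3 vehicle libraries as a grey band. The ERN1 panel has its highest points at Scutellariae Radix high (42.1 to 44.9 CPM) and Coptidis Rhizoma medium (50.6 CPM), where HSPA5 and CALR have their lowest, and DNAJB9 has its highest at dried ginger high (47.2 and 48.7 CPM).

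Dried ginger at the high dose raised 7 of 8 disulfide isomerases, 2 of 3 lectin chaperones and both translocon subunits, and lowered HSPA5, CALR, SEL1L and XBP1. Of the 6 HSPA5 partners and stress-induced proteins it raised DNAJB9 and DNAJC3, while DNAJB11, SDF2L1, CRELD2 and MANF were not called, and neither was HSP90B1. DNAJB9 had 48.7 and 47.2 CPM with high-dose dried ginger, against 27.0, 26.6 and 25.7 CPM with the vehicle, a log2 change of 0.86 ± 0.067 (SE, adjusted p 9.65e-15 by edgeR). It was the largest rise of the 34 genes there, and the groups were far apart. Of the 8 disulfide isomerases, 7 rose and none fell. P4HB had 1763 and 1706 CPM, against 1494, 1483 and 1485 CPM with the vehicle, and PDIA3, the isomerase that works with the lectin chaperones, 721 and 726 CPM, against 621, 589 and 619.6 CPM. The lectin chaperones divided. CANX was higher, with 1126 and 1151 CPM against 978, 1003 and 958 CPM with the vehicle. UGGT1, which re-tags incompletely folded glycoproteins, was higher by 0.24 on the log2 scale, while CALR was lower, with 1182 and 1149 CPM against 1406, 1398 and 1362 CPM with the vehicle. HYOU1 rose by 0.20 and HSPA5 fell by 0.11 on the log2 scale. MANF lay below every vehicle library, with 85.8 and 88.7 CPM against 99.9, 91.3 and 97.7 CPM (log2 change -0.14, adjusted p 0.0541 by edgeR). The call on HSPA5 was lost when the first high-dose replicate was left out, at a log2 change of -0.09.

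Degradation and sensor genes also moved with high-dose dried ginger. EDEM1 had 92.2 and 92.2 CPM with high-dose dried ginger, against 62.8, 61.4 and 58 CPM with the vehicle (log2 change 0.60 ± 0.052, adjusted p 2.15e-13 by edgeR). SELENOS had 40.2 and 42.7 CPM, against 30.9, 30.2 and 28.9 CPM with the vehicle, and SEL1L was lower, with 119.5 and 128 CPM against 149.5, 154 and 147 CPM. ERN1 had 23.9 and 24.2 CPM, against 12.9, 14.9 and 15.2 CPM with the vehicle, a log2 change of 0.75 ± 0.072 (SE, adjusted p 5.91e-12 by edgeR). None of these groups overlapped. XBP1 fell while its sensor's mRNA rose, with 254 and 262 CPM against 352, 314 and 366 CPM in vehicle libraries (log2 change -0.42 ± 0.076, adjusted p 1.24e-05 by edgeR). Both SEC61 subunits were higher, SEC61A1 at 586 and 588 CPM against 466, 486 and 476 CPM with the vehicle, and SEC61B by 0.47 on the log2 scale. At the medium dose none of the 34 genes was called by edgeR, beside 1.45% of all genes. There 4 had an unadjusted p below 0.05 and DESeq2 called 0. At the low dose HERPUD1 alone was called, lower by 0.12, beside 2.12% of all genes (0.43% lower), and without the third low-dose replicate, or without vehicle replicate 1 or 3, none was.

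Fresh ginger at the high dose raised ERN1 and EDEM1 most and lowered 8 genes, among them HSPA5, HSP90B1, CALR and PDIA4. ERN1 had 26.8, 26.8 and 24.3 CPM with high-dose fresh ginger, against 12.9, 14.9 and 15.2 CPM with the vehicle (log2 change 0.86 ± 0.064, adjusted p 1.97e-15 by edgeR). EDEM1 had 87.1, 88.4 and 94.0 CPM, against 62.8, 61.4 and 58 CPM with the vehicle (log2 change 0.57 ± 0.047, adjusted p 5.13e-14 by edgeR). Both stood clear of the vehicle range. EIF2AK3 rose by 0.21 and ATF6 by 0.18 on the log2 scale, and XBP1 fell, with 284, 308 and 253 CPM against 352, 314 and 366 CPM in vehicle libraries. SDF2L1 had the largest fall, with 25.5, 21.2 and 26.3 CPM against 32.1, 29.4 and 31.5 CPM with the vehicle. Its log2 change of -0.35 lost the call without the second replicate (-0.26). HSPA5 had 1274, 1252 and 1248 CPM, against 1430, 1421 and 1446 CPM with the vehicle, without overlap (log2 change -0.19, adjusted p 2.94e-06 by edgeR). DNAJB9 was called higher by 0.23 although its lowest extract library, at 26.9 CPM, lay within the vehicle range. At the medium dose ERN1, EDEM1 and SYVN1 rose and DNAJB11 fell, 4 of the 34 beside 11.3% of all genes (6.63% higher and 4.66% lower). None was called at the low dose, beside 0.602%, with 3 at an unadjusted p below 0.05 and 0 by DESeq2.

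The formula Sayeok-tang at the high dose gave small changes in a large number of the 34 genes. ERN1 led with 20.7, 19.7 and 20.7 CPM, against 12.9, 14.9 and 15.2 CPM in vehicle libraries (log2 change 0.51 ± 0.066, adjusted p 1.82e-08 by edgeR). SELENOS rose by 0.28, EDEM1 by 0.28 and DNAJC3, a J protein that also restrains EIF2AK3, by 0.26 on the log2 scale. DNAJC3 had 115, 125 and 127.5 CPM with Sayeok-tang, against 102, 105.5 and 99.9 CPM with the vehicle. HERPUD1 fell most, with 92.6, 92.1 and 92.9 CPM against 109, 102 and 106 CPM, followed by SEL1L (-0.15), OS9 (-0.15) and CALR (-0.14). HSPA5, with 1457, 1356 and 1391 CPM, overlapped the vehicle range and was not called. No gene of the 34 moved by 1.5-fold or more. At the low and medium doses of Sayeok-tang none was called by edgeR, beside 0.0574% and 4.22% of all genes. At the low dose 4 had an unadjusted p below 0.05 and at the medium dose 8, and DESeq2 called 0 at both.

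Bojungikgi-tang called none of the 34 genes at any dose by edgeR. The background was 0% of all genes at the low dose, 0.0645% at the medium dose and 4.55% at the high dose. Unadjusted p-values below 0.05 numbered 2, 1 and 7 at the low, medium and high dose, and DESeq2 called 0, 0 and 1. Pinelliae Tuber at the high dose raised XBP1, with 395, 397 and 410.0 CPM against 352, 314 and 366 CPM in vehicle libraries (log2 change 0.22, adjusted p 0.0175 by edgeR). CRELD2 (0.21), EDEM1 (0.17), TXNDC5 (0.15) and CANX (0.11) were also called higher and HERPUD1 lower (-0.13). The CRELD2 call was lost under several alternative settings, and 3 of the 34 were called without high-dose replicate 2 or without vehicle replicate 3. HSPA5, at 1518, 1452 and 1433 CPM, was not called. Against the low dose of Pinelliae Tuber, which shares its prefix, TXNDC5 was again called higher (0.14). XBP1 (0.09), CRELD2 (0.06), EDEM1 (0.03), CANX (0.08) and HERPUD1 (-0.06) were not called against that low dose. None was called by edgeR at the low and medium doses of Pinelliae Tuber, beside 0.272% and 0.287% of all genes, with 4 and 5 at an unadjusted p below 0.05 and 0 by DESeq2 at both.

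The single library of Coptidis Rhizoma at 56 µg/mL held high ERN1 and low HSPA5, CALR and PDIA4, values that have no test. ERN1 had 12.9, 14.9 and 15.2 CPM with the vehicle, 21.6 CPM at 11.2 µg/mL (1.51-fold over the vehicle) and 50.6 CPM at 56 µg/mL (3.52-fold). Past 1.5-fold downward at 56 µg/mL were SDF2L1 (12.5 CPM), CRELD2 (16.7 CPM), MANF (50.8 CPM), CALR (755 CPM), PDIA4 (282 CPM) and HSPA5 (899 CPM). All 6 lay below every vehicle library. These 7 of 34 genes stand beside 21.4% of all tested genes past 1.5-fold (10.4% higher and 11% lower), a similar share. At 11.2 µg/mL ERN1 alone was past 1.5-fold, beside 6.15% of all genes (3.2% higher), with 0 genes past it when vehicle replicate 1 was left out and 2 without vehicle replicate 2. The share of mitochondrial reads was high in both libraries, at 20.1% with 11.2 µg/mL and 17.3% with 56 µg/mL. Its part in these values was not tested. HERPUD1, low with Scutellariae Radix, was at 96.9 CPM with Coptidis Rhizoma at 56 µg/mL, a log2 difference of -0.12. Zizyphi Fructus had none of the 34 genes past 1.5-fold at any dose, beside 3.63%, 2.81% and 2.71% of all genes at the low, medium and high dose. Its largest differences were CRELD2 at the low dose (48.4 CPM, log2 difference 0.55) and DNAJB9 at the high dose (20.4 CPM, log2 difference -0.38).

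Setting the high dose against the low dose of the same extract removes the vehicle from the comparison, and the libraries then share a label prefix. ERN1 rose in 4 of the 6 extracts. It had 44.9, 43.7 and 42.1 CPM at the high dose of Scutellariae Radix, against 15.0, 16.4 and 14.4 CPM at the low dose, which is 2.86-fold (log2 change 1.48 without the third low-dose replicate). Fresh ginger had 26.8, 26.8 and 24.3 CPM at the high dose, against 15.8, 14.4 and 14 CPM at the low dose, and Sayeok-tang 20.7, 19.7 and 20.7 CPM, against 14.5, 13.9 and 14.7 CPM. None of these groups overlapped. Log2 changes of ERN1 were 1.52 ± 0.061, 0.82 ± 0.064, 0.59 ± 0.07 and 0.51 ± 0.066 (SE) for Scutellariae Radix, fresh ginger, dried ginger and Sayeok-tang. The adjusted p-values by edgeR were 3.39e-25, 5.68e-15, 1.71e-09 and 2.31e-08 in the same order. Dried ginger gave the largest change of DNAJB9, with 48.7 and 47.2 CPM at the high dose, against 25.1, 24.7 and 21.3 CPM at the low dose. This was 2.03-fold (log2 change 1.02 ± 0.067, adjusted p 2.74e-17 by edgeR), and 0.96 on the log2 scale without the third low-dose replicate.

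Over all 34 genes the high dose raised 8 and lowered 16 against the low dose of Scutellariae Radix, beside 55.7% of all genes called (27.2% higher and 28.5% lower). Dried ginger raised 19 and lowered 3, beside 47.4% (23.2% higher and 24.3% lower). Fresh ginger raised 10 and lowered 7, beside 47.6% (23.3% higher and 24.3% lower). Sayeok-tang raised 12 and lowered 5, beside 37.6% (18.4% higher and 19.3% lower). Pinelliae Tuber raised TXNDC5 and lowered OS9, beside 10.1% of all genes (5.09% higher and 4.98% lower), and 1 gene was called without high-dose replicate 2 or 3 or low-dose replicate 1 or 2. Bojungikgi-tang called none by edgeR, beside 1.69%, with 4 genes at an unadjusted p below 0.05 and 1 called by DESeq2. Without the third low-dose replicates the counts were 7 higher and 17 lower for Scutellariae Radix and 19 and 3 for dried ginger. CALR (-0.57), MANF (-0.51), PDIA4 (-0.47) and SDF2L1 (-0.47) fell most with Scutellariae Radix on the log2 scale. HYOU1 (-0.03), EIF2AK3 (-0.06), OS9 (-0.04) and SEC61B (0.02), called against the vehicle with this extract, were not called against its low dose. XBP1 (-0.22), SEC61A1 (0.095), DERL1 (0.10) and DNAJB11 (0.09) were called against its low dose only. XBP1 fell most with fresh ginger (-0.44) and dried ginger (-0.48), and HERPUD1 with Sayeok-tang (-0.21).

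The high-against-low comparisons share no library. With Pinelliae Tuber only TXNDC5 and OS9 were called and with Bojungikgi-tang none, so no gene was called in every extract. The other 4, Sayeok-tang, fresh ginger, dried ginger and Scutellariae Radix, were read together because they had the most calls. In all 4, 7 of the 34 genes were called higher: ERN1, ATF6, DNAJB9, EDEM1, DERL1, SELENOS and SEC61A1. Of all 13945 genes 1124 (8.06%) were called higher in all 4. CALR, SEL1L and XBP1 were called lower in all 4, as were 1139 of all genes (8.17%). The 7 that rose include 2 of the 3 sensors, 3 genes of degradation, a J protein and a translocon subunit, and no gene of the Hsp70 and Hsp90 group, the lectin chaperones or the disulfide isomerases. DERL1, a channel protein of retrotranslocation, was higher by 0.17 with Sayeok-tang, 0.13 with fresh ginger, 0.13 with dried ginger and 0.10 with Scutellariae Radix on the log2 scale. DNAJB9, EDEM1, SELENOS, ATF6 and ERN1 and the 3 that fell were called in all 4 under each of 7 alternative settings. DERL1 was not under DESeq2, without the filter on low counts or with only the compared groups fitted, and SEC61A1 was not under the last 2 of these or without the libraries that stand apart.

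**Figure D3:**
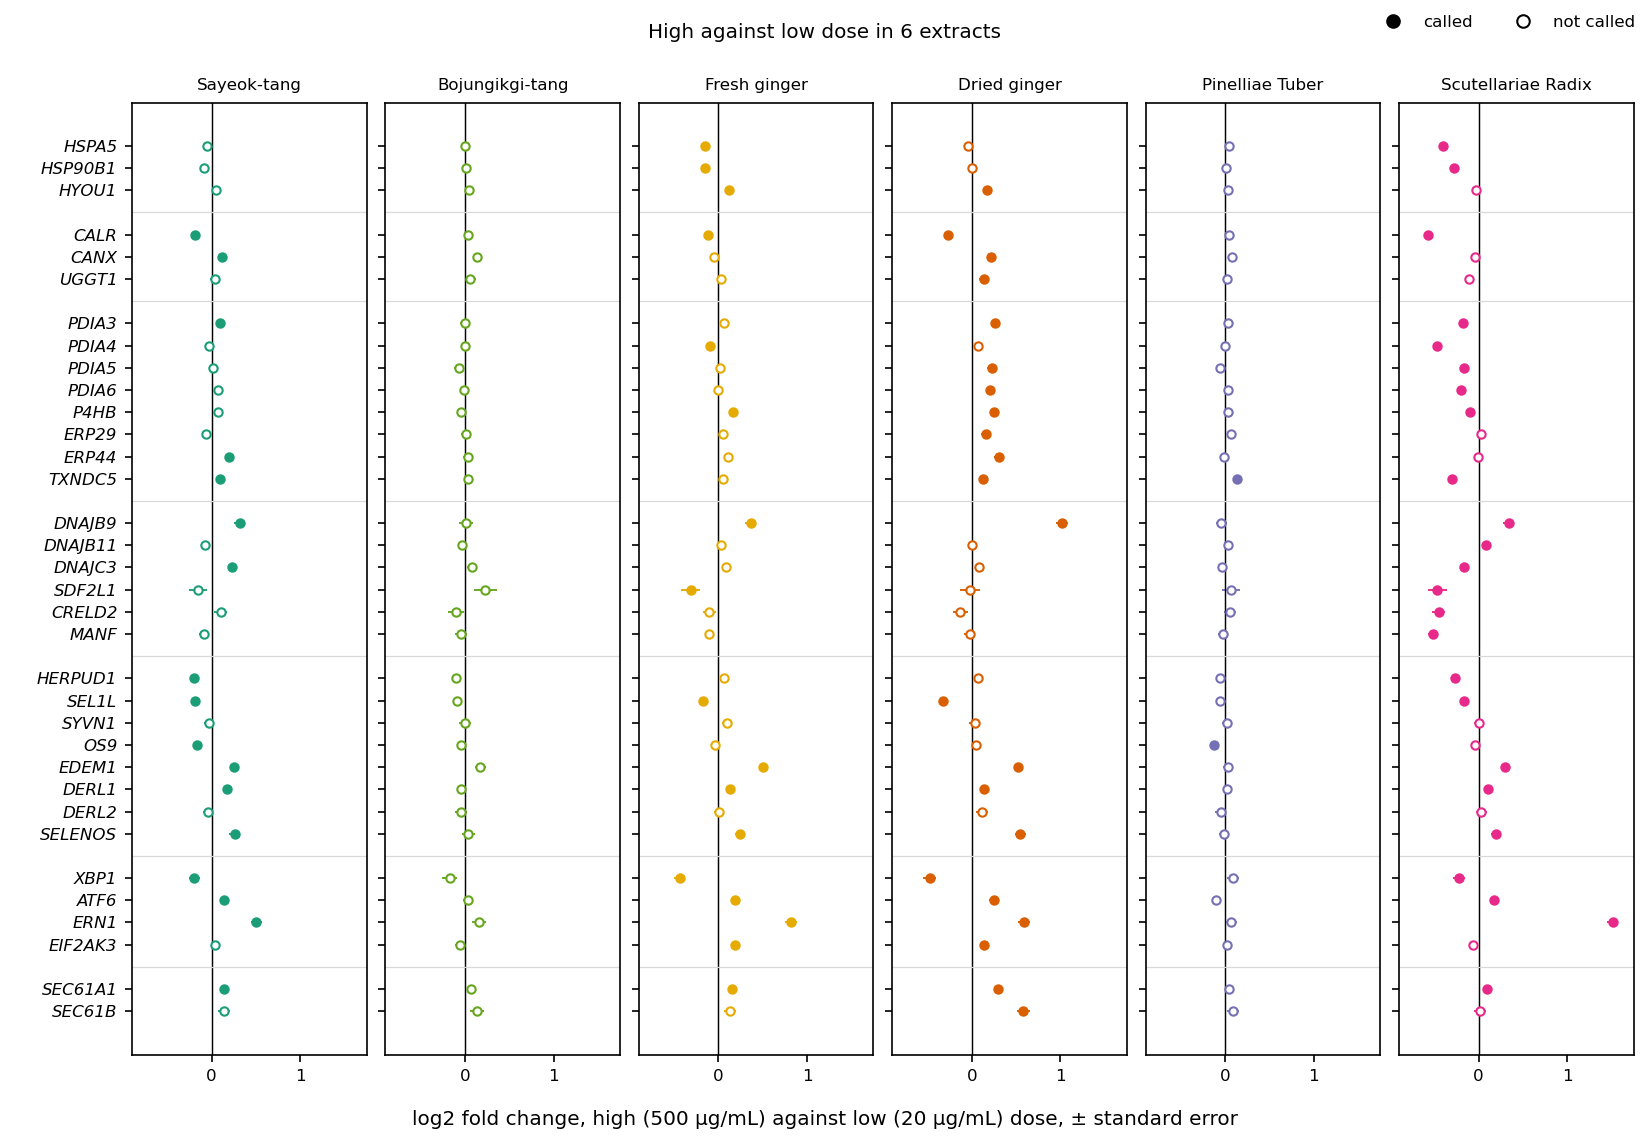
Log2 fold change of each of the 34 genes at 500 µg/mL against 20 µg/mL of the same extract, with standard errors; filled points were called. ERN1 lies at 1.52 for Scutellariae Radix and DNAJB9 at 1.02 for dried ginger, CALR and PDIA4 lie left of 0 for Scutellariae Radix, and Bojungikgi-tang has no filled point.

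A rise in order of dose, with no overlap between neighbouring doses, was found for ERN1 with Sayeok-tang, fresh ginger and Scutellariae Radix. It was the only such gene of the 34 with Sayeok-tang and with Scutellariae Radix, where 3.56% and 3.12% of all tested genes rose in this order. EDEM1 was ordered in this way with fresh ginger, at 62.2, 64.7 and 63.3 CPM at the low dose, 72.9, 74.6 and 72.2 CPM at the medium dose and 87.1, 88.4 and 94.0 CPM at the high dose. It was also ordered with Bojungikgi-tang, at 59.8 and 59.6, 63.2 and 65.1, then 67.9 and 66.7 CPM, although no change of EDEM1 was called there. SEC61A1 rose in dose order with fresh ginger, CANX and SDF2L1 with Bojungikgi-tang, TXNDC5 with Pinelliae Tuber, and CANX, PDIA4, ERP29, TXNDC5 and SEC61B with dried ginger. These are 3 of the 34 with fresh ginger, beside 7.51% of all genes, 3 with Bojungikgi-tang, beside 2.35%, 1 with Pinelliae Tuber, beside 0.932%, and 5 with dried ginger, beside 3.2%. XBP1 fell in dose order with fresh ginger, from low to high dose at 386, 378 and 381, then 353, 352 and 345, then 284, 308 and 253 CPM. CALR also fell in order with fresh ginger, with low and medium doses almost touching at 1381 CPM, so 2 of the 34 stand beside 7.13% of all genes. HERPUD1 and OS9 fell in dose order with Sayeok-tang, beside 3.22% of all genes, with the doses of OS9 almost touching at 162 CPM. Most of these counts are 1 to 3 genes, which is too few to set apart from the background shares.

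Extracts that share a label prefix were also compared with each other at the high dose. Scutellariae Radix against Pinelliae Tuber called 5 of the 34 genes higher and 20 lower, beside 55.9% of all genes (27.2% higher and 28.7% lower). ERN1 had 44.9, 43.7 and 42.1 CPM with Scutellariae Radix, against 15.7, 15.6 and 17.4 CPM with Pinelliae Tuber (log2 change 1.42 ± 0.06, adjusted p 2.28e-24 by edgeR). CALR had 933, 889 and 926 CPM, against 1532, 1374 and 1421 CPM, a log2 change of -0.66 without overlap. CRELD2 (-0.60), PDIA4 (-0.54) and SDF2L1 (-0.52) followed. Dried ginger against fresh ginger called 12 higher and 2 lower, beside 23.5% of all genes (10.2% higher and 13.2% lower). DNAJB9 had 48.7 and 47.2 CPM with dried ginger, against 26.9, 33.3 and 32.6 CPM with fresh ginger (log2 change 0.63, adjusted p 2.81e-10 by edgeR), and CANX was higher by 0.26. CALR was lower by 0.15 in dried ginger. ERN1 was not called, with 23.9 and 24.2 CPM in dried ginger, against 26.8, 26.8 and 24.3 CPM in fresh ginger. The count of 14 rests on few libraries, with 7 when the second dried ginger replicate is left out and 9 without the first. Bojungikgi-tang against Sayeok-tang called 3 higher and 6 lower, beside 26.2% of all genes (13% higher and 13.2% lower). ERN1 had 15.4 and 17.3 CPM with Bojungikgi-tang, against 20.7, 19.7 and 20.7 CPM with Sayeok-tang (log2 change -0.32, adjusted p 0.000743 by edgeR), and CALR was higher by 0.17. Without the second Bojungikgi-tang replicate 5 genes were called in place of 9.

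Whether the step from low to high dose differed between such extracts was tested directly. Between Scutellariae Radix and Pinelliae Tuber it differed for 19 of the 34 genes, beside 44.4% of all genes, and for 19 also without the third low-dose Scutellariae Radix replicate. The differences in log2 change were 1.45 for ERN1 (adjusted p 8.69e-18 by edgeR), -0.61 for CALR, -0.53 for SDF2L1 and -0.44 for HSPA5. TXNDC5 moved in opposite directions, to 549, 555 and 544 CPM at the high dose of Scutellariae Radix, against 718, 679 and 637 CPM at the low dose. With Pinelliae Tuber it had 729, 739 and 752 CPM at the high dose, against 694, 664 and 663 CPM at the low dose. The difference was -0.44, and -0.47 without the third low-dose Scutellariae Radix replicate. Between dried and fresh ginger the step differed for 12 genes, beside 15.9% of all genes, with the largest differences at DNAJB9 (0.66, adjusted p 6.89e-07 by edgeR), SEC61B (0.45) and SELENOS (0.30). That count was 6 without the second high-dose and 7 without the third low-dose dried ginger replicate. Between Bojungikgi-tang and Sayeok-tang it differed for 4, beside 13.9%, ERN1 (-0.35), DNAJB9 (-0.31), DERL1 (-0.22) and CALR (0.22), and for 1 without the second high-dose Bojungikgi-tang replicate and 2 without either low-dose one.

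Other genes of the secretory pathway and of the stress response were read beside the 34. Their counts stand beside the shares of all genes called against the vehicle, 28.7% higher and 28.1% lower with high-dose Scutellariae Radix, 23.3% and 22.8% with dried ginger, 24.3% and 23.6% with fresh ginger, and 20.3% and 19.9% with Sayeok-tang. The PERK-ATF4-CHOP list holds targets that are raised when EIF2AK3 or related kinases slow translation. With high-dose Scutellariae Radix 18 of its 19 tested genes rose and none fell, with a median log2 change of 1.10. ATF3, a stress-induced transcription factor, rose by 2.93 and PPP1R15A, which restores translation, by 2.72 on the log2 scale. DDIT3 had 23.9, 21.9 and 25.9 CPM with high-dose Scutellariae Radix, against 13, 11.8 and 12.4 CPM with the vehicle, without overlap. ASNS, the asparagine synthetase raised by ATF4, had 158, 154 and 165 CPM, against 42.2, 44.9 and 44.4 CPM with the vehicle. HSPA5 and CALR were thus low in the libraries in which these targets were high. With Coptidis Rhizoma at 56 µg/mL 15 of the 19 were past 1.5-fold upward and none downward, with DDIT3 at 30.4 CPM and ASNS at 240.1 CPM. Of all genes 10.4% were past 1.5-fold upward there and 11% downward.

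With high-dose dried ginger the PERK-ATF4-CHOP list rose in 18 of 19 genes with a smaller median of 0.53, led by the cystine transporter gene SLC7A11 (2.24), VLDLR (1.59) and ASNS (1.48). With fresh ginger 13 rose and 2 fell, with a median of 0.44. DDIT3 was at 15.1 and 13.6 CPM in dried ginger and 12.6, 13 and 13.6 CPM in fresh ginger, against 13, 11.8 and 12.4 CPM with the vehicle. Sayeok-tang raised 5 and lowered 6 of the list, with DDIT3 at 8.78, 9.3 and 9.77 CPM, below every vehicle library. High-dose Bojungikgi-tang lowered 9 and raised none, beside 4.55% of all genes called either way, with ASNS lower by 0.45 on the log2 scale. Pinelliae Tuber raised 2 and lowered 5, where 9.14% of all genes were higher and 6.57% lower.

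The lists of ER entry and transport, other folding, other degradation and regulator genes were counted in the same high-dose comparisons with the vehicle. Of 30 entry and transport genes, dried ginger raised 20 and lowered 1, fresh ginger raised 15 and lowered 5, Sayeok-tang raised 14 and lowered 0, and Scutellariae Radix raised 4 and lowered 11. SEC61G, the third translocon subunit, rose by 0.71 with dried ginger, and the cargo receptor SURF4 fell by 0.35 with Scutellariae Radix. Of 22 other folding genes, dried ginger raised 16 and lowered 2, with the J protein DNAJC10 up by 0.79, and Scutellariae Radix raised 8 and lowered 7, with RCN1 up by 0.97 and the sulfhydryl oxidase QSOX1 by 0.70. ERO1A, the oxidase that recharges the isomerases, had 209.7, 235 and 231 CPM with high-dose fresh ginger, against 131, 134.5 and 134.7 CPM with the vehicle. Of 21 other degradation genes, dried ginger raised 12 and lowered 1, and Scutellariae Radix raised 8 and lowered 4. Of 14 regulators Scutellariae Radix raised 2 and lowered 8, among them CREB3L2 (-0.51), NFYB (-0.49), a subunit of the factor that binds the CCAAT box, and GTF2I (-0.48). NFYB (-0.51) and NFYC (-0.37), another subunit, were also called lower with high-dose dried ginger. Secreted plasma proteins, the clients of this machinery in hepatocytes, fell in 20 of 22 genes and rose in 2 with Scutellariae Radix, fell in 15 and rose in 2 with dried ginger, fell in 14 and rose in 4 with fresh ginger, and fell in 17 and rose in 1 with Sayeok-tang. Heat shock genes, mostly cytosolic but with the mitochondrial HSPD1 and HSPE1, rose in 4 and fell in 4 of 12 with Scutellariae Radix. These shares, and those of the other folding genes with Scutellariae Radix, are near the shares of all genes. HSPA1A was higher there by 0.57, and it shares reads with its near-identical copy HSPA1B.

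**Figure D4:**
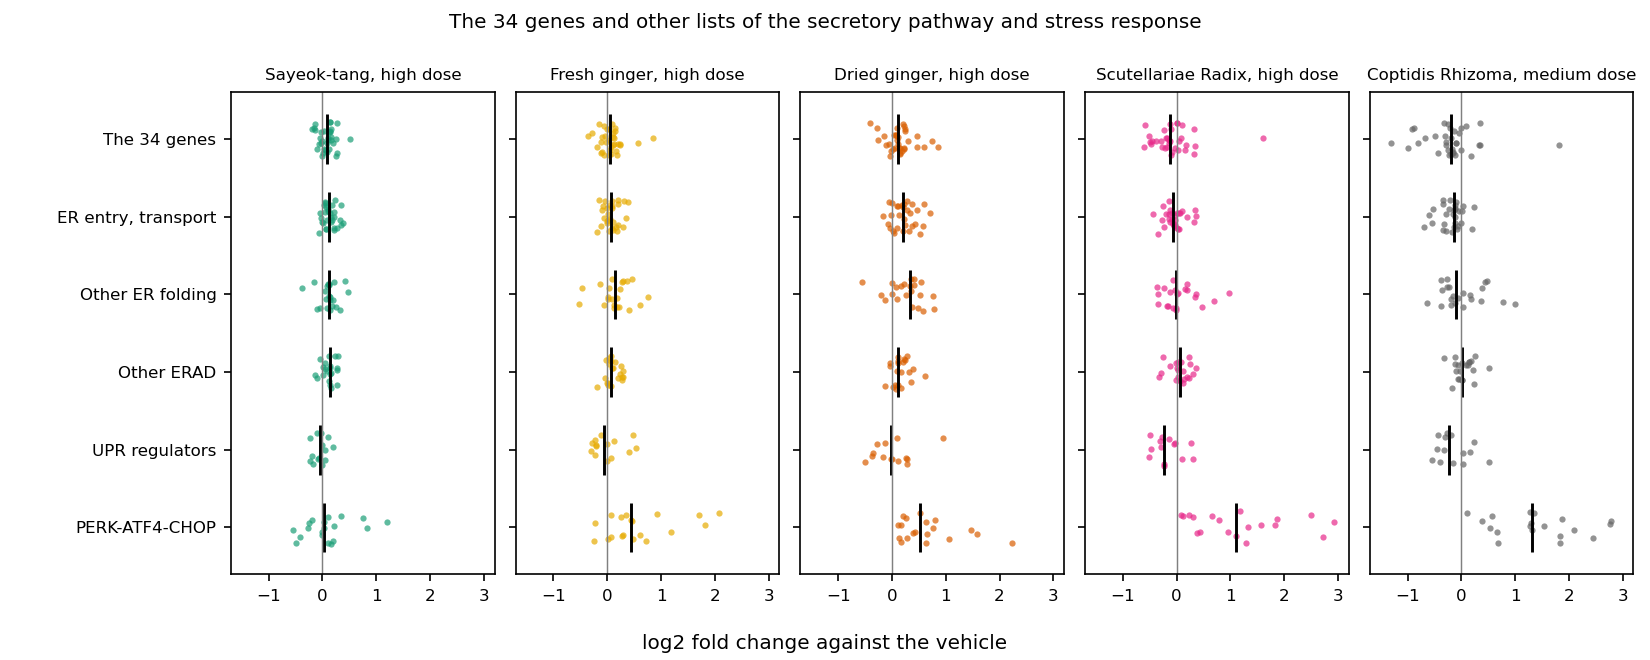
Log2 fold change against the vehicle for the 34 genes and 5 other lists (rows) at the high dose of 4 extracts and at 56 µg/mL of Coptidis Rhizoma (1 library); points are genes and black bars list medians. The PERK-ATF4-CHOP list has its median at 1.10 for Scutellariae Radix and 0.03 for Sayeok-tang, while the 34 genes have theirs between -0.19 and 0.12 in all 5 panels.

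The 9 genes with an ERSE or ERSE-II in the promoter (HSPA5, HSP90B1, CALR, CANX, CRELD2, XBP1, HYOU1, SDF2L1 and HERPUD1, the sites shown above) had a median log2 change of -0.39 with high-dose Scutellariae Radix, 0 called higher and 7 lower, where 28.7% of all genes were higher and 28.1% lower. The other 23 with a promoter had a median of -0.09 there, 6 higher and 10 lower. With high-dose fresh ginger the 9 had a median of -0.10, 1 higher and 5 lower, and the other 23 of 0.11, 11 higher and 3 lower. Of all genes 24.3% were higher and 23.6% lower there. With dried ginger the medians were -0.01 and 0.15, and with Sayeok-tang -0.03 and 0.10. High-dose Pinelliae Tuber went the other way, with medians of 0.06 for the 9, 3 higher and 1 lower, and 0.03 for the other 23, 2 higher and 0 lower. Its shares of all genes were 9.14% higher and 6.57% lower. These are descriptions with no test of the split.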

How the data were processed

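RNA was measured in 58 libraries of HepG2 cells, made with a directional kit and read as pairs, per the labels' protocols. The authors deposited expected counts per gene, estimated with RSEM 1.3.3 after FastQC 0.11.9, Trim Galore 0.6.5 and STAR 2.7.3a on GRCh38, per the submitters' processing notes. The annotation release is not given in the sources used here. Of nonzero values 75.26% were whole, and all were rounded before testing. A further 209 columns that the labels did not map were not used, and the wortmannin control was not analysed here. Of 60675 identifiers 57055 received a symbol.

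The 13945 genes that reached 1 CPM in 3 or more libraries were fitted with all 24 groups in edgeR 4.0.16 (R 4.3.3), with TMM scaling (factors 0.878 to 1.035) and the quasi-likelihood test, adjusted by Benjamini-Hochberg over all of them in each comparison. The 27 comparisons set replicated groups against the vehicle (18), the high dose against the low (6) and an extract against another (3). The common dispersion of 0.00181 is a coefficient of variation of 4.25%. Deviations from the group mean were correlated between same-numbered replicates (r between -0.157 and 0.206). A comparison was taken as paired with at least 3 shared numbers and every r above 0.1, and 0 of 27 were. Comparisons with a group of 2 libraries could not meet this rule. In high against low dose, r was 0.124 with Bojungikgi-tang and 0.047 to 0.206 with fresh ginger.

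The 34 genes and the other lists were chosen with earlier results of these data known. In each comparison the 4 largest rises and falls among called members may be named, with library values for 17 members that mark a role and up to 3 called genes of each other list. Values of CANX, TXNDC5, PDIA3, P4HB, PDIA6, SELENOS, SEC61A1, SEC61B and others outside that rule were added after they were seen. Alternatives were DESeq2 1.42.0, RLE scaling, no filter, only the compared groups, a replicate block and leaving out each replicate. After seeing the data, fits without the libraries that stand apart and without mitochondrial genes were added, and alternatives of the tests of the difference and of the count over 4 extracts.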

Additional observations from a re-analysis of the deposited data

Results flagged for a closer look

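TXNDC5, a disulfide isomerase, moved in opposite directions with dose in Scutellariae Radix and Pinelliae Tuber, and the difference itself was tested. Its high-against-low log2 change was -0.30 with Scutellariae Radix and 0.14 with Pinelliae Tuber, a difference of -0.44 with an adjusted p of 7.89e-11 by edgeR. All 3 libraries of each high dose lay on the stated side of all 3 low-dose libraries.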

How the results depend on the processing

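Of 444 recounts of called members over 35 results, 398 stayed within 1.5 times the reported count. Fits with DESeq2 called 1 gene each in the high-against-low and high-against-vehicle comparisons of Bojungikgi-tang (0 reported), as did leaving out mitochondrial genes, and without the libraries that stand apart the counts were 1 and 2. No comparison met the rule for pairing, which groups of 2 libraries could not meet. The replicate block gave 1 gene in each of those Bojungikgi-tang comparisons and changed no other count by over 1.5 times. Without the filter on low counts 1 gene was called with Bojungikgi-tang at the high and low dose, Pinelliae Tuber medium, Sayeok-tang medium and dried ginger medium against the vehicle and with Pinelliae Tuber high against low. The same setting gave 2 with Scutellariae Radix low, 0 with dried ginger low and 5 for the difference in dose step between the gingers. Sayeok-tang medium gave 1 and dried ginger low 0 without the libraries that stand apart. With only the compared groups fitted, dried ginger low gave 0, dried against fresh ginger 7 and the difference between the gingers 3. The causes of these moves were not tested.

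Leaving out 1 replicate gave 22 to 24 called genes for high-dose Scutellariae Radix against the vehicle, 17 to 23 for dried ginger, 17 to 20 for fresh ginger, 16 to 20 for Sayeok-tang, 3 to 4 for Pinelliae Tuber and 0 to 1 for Bojungikgi-tang. Scutellariae Radix gave 4 to 6 at the medium and 1 to 2 at the low dose, fresh ginger medium 3 to 4, dried ginger low 0 to 1, Coptidis Rhizoma low 0 to 2 and Coptidis Rhizoma medium 7 throughout. High against low dose gave 21 to 24 with Scutellariae Radix, 19 to 24 with dried ginger, 15 to 19 with fresh ginger, 14 to 17 with Sayeok-tang and 1 to 2 with Pinelliae Tuber. Between extracts the ranges were 23 to 26 for Scutellariae Radix against Pinelliae Tuber, 7 to 16 for dried against fresh ginger and 5 to 8 for Bojungikgi-tang against Sayeok-tang. Differences in dose step gave 16 to 20, 6 to 11 and 1 to 5 for the same pairs. The other comparisons gave 0 throughout. Of 1707 alternatives for 128 named changes, 1614 kept their direction and side of the threshold, 93 lost the call and 0 reversed. Among those that lost it were ERN1 with Scutellariae Radix medium without vehicle replicate 1 (0.19), SDF2L1 in dried against fresh ginger without either dried ginger replicate or the second fresh ginger replicate, and XBP1 in Sayeok-tang high against low without replicate 2 of either dose. Standard errors in high-dose Scutellariae Radix against the vehicle were 0.11 for SDF2L1 and 0.062 for ERN1 and DNAJB9, against 0.032 for HSPA5 and CALR. Groups of 1 or 2 libraries limit the comparisons with Coptidis Rhizoma, Zizyphi Fructus and Bojungikgi-tang.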
